A study of Mus musculus with 17 samples.

Results

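Igf2r, Peg3, Ndn, Meg3 and Plagl1 are imprinted growth genes of the mouse, 5 of the 24416 genes counted in these libraries, and they were taken by name rather than by any measured value. All 5 were among the 13558 genes with enough counts to test, Meg3 and Plagl1 through 1 group of libraries, described below, in which they are high. The study sequenced RNA from 17 libraries of common myeloid progenitors, the marrow and fetal liver cells from which granulocytes, macrophages, erythrocytes and megakaryocytes derive; the cells were isolated by FACS from fetal liver or adult bone marrow. It asked how the RNA-binding protein LIN28B and the let-7 microRNAs shape these cells before and after birth.

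The fetal liver libraries were 3 from wild-type mice (replicates 1, 4 and 5), 3 labelled Lin28b knockout (replicates 3, 6 and 8) and 1 with inducible let-7. The adult marrow libraries were 3 wild-type (replicates 2, 5 and 6), 2 with inducible LIN28B (replicates 1 and 5), 2 with inducible LIN28B under vavcre, a driver restricted to blood cells (replicates 4 and 6), and 3 with knockout of let-7b and let-7c (replicates 1, 2 and 3). All mice were C57BL/6J except the let-7b/c knockouts, labelled albino black 6. Genotype and strain label change together between the let-7b/c knockouts and wild-type marrow, so their effects cannot be told apart. The let-7b/c genotype is taken from the source and genotype labels; the titles of those samples carry a code, FLD, that no label explains and that does not name the genotype, so every let-7b/c value below rests on those 2 labels. Every library, wild-type included, carries the same label of doxycycline exposure, so the labels do not set treated apart from untreated mice. Fetal age and adult age are not labelled, and stage and organ change together, so their effects cannot be told apart. The labels do not say that replicates came from separate animals, and p-values then measure the spread between these samples only.

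An imprinted gene is read from 1 parental copy and silenced on the other. Paternally expressed genes tend to promote fetal growth and maternally expressed genes tend to restrain it, and many of them are switched down after birth. LIN28B, present in fetal blood progenitors, binds let-7 precursors and blocks their maturation, and let-7 in turn represses messages that carry its seed match. Counts per gene do not separate the parental copies, so every level below is the sum of both.

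The mature let-7 sequences, from RefSeq (GRCm38.p6), are shown because some of the groups are labelled as let-7 knockout or inducible let-7. Capitals mark the seed, bases 2 to 8, which let-7b and let-7c share.
let-7b: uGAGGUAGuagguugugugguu
let-7c: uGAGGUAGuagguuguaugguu
The letters CTACCTC, which pair with bases 2 to 8 of that seed, were searched on the sense strand of the GENCODE 3′ untranslated regions. Igf2r and Peg3 each held 1 such match, at chr17:12683036-12683058 and chr7:6706883-6706905, both on the minus strand of GRCm38. The matches are printed with their flanking bases and with the seed match in capitals.
Igf2r: cacctgctccgtgccCTACCTCa
Peg3: ggagtgttctgtcccCTACCTCt
Ndn and Plagl1 held no match in this window, and Meg3, a noncoding RNA, has no such region. A match is common: 10.1% of 21153 coding genes held 1 or more. Among genes with a region within 20% of the same length, the share was 9.97% for Igf2r and 20.6% for Peg3. A match of letters is a description and was not tested as a site of let-7 action here.

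The promoters of Igf2r and Ndn are shown because their differences had opposite signs in the libraries labelled Lin28b knockout and in the LIN28B lines, where that of Ndn did not pass the test. Each runs from 250 bases before to 50 bases after the RefSeq start (GRCm38.p6), with every CpG, the dinucleotide methylated in imprinting, in capitals. The Igf2r stretch is chr17:12769657-12769956, minus strand, and the Ndn stretch is chr7:62348027-62348326, plus strand. The GENCODE model of Ndn, a single exon at chr7:62346569-62350262, starts upstream of this RefSeq start, so the Ndn stretch lies inside that exon.
Igf2r: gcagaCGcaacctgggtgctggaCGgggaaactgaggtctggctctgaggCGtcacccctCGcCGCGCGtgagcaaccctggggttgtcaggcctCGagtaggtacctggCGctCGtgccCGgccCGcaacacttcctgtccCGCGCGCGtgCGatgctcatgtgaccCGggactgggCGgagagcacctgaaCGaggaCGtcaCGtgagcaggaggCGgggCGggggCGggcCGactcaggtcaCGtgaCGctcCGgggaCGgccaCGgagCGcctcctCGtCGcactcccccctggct
Ndn: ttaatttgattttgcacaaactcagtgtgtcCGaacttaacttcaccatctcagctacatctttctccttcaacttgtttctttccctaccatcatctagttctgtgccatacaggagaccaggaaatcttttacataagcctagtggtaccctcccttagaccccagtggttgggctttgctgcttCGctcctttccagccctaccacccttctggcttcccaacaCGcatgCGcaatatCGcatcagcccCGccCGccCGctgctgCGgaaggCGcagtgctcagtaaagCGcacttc
The Igf2r stretch held 34 CpGs, more than 92.5% of 27025 promoters of the same length, whose median was 7. Ndn held 11 and Peg3 held 13, more than 58.1% and 61.5% of promoters. Plagl1 held 26, and the Meg3 start with the most CpGs held 13. The letters TGCCGC, the methylated core bound by ZFP57, were searched on both strands and occurred in 11.6% of promoters. They occurred 1 time each in the Plagl1 and Meg3 stretches and in none of the other members' stretches.

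Levels are given as CPM, the deposited read counts of a gene relative to the library's scaled total. Library totals ranged from 14957111 to 28165554 counts on transcripts. Differences were tested with edgeR's quasi-likelihood test in a fit of all 17 libraries, with Benjamini-Hochberg adjustment over all 13558 genes, and a gene was called changed at an adjusted p under 0.05. Where a group held 1 to 3 counts of a gene, the ratio of counts is given with its exact 95% interval, and where it held none, a lower bound set at 3 counts over the group; these cover counting error only. The progenitor marker Mpo, a granule enzyme, was high in every group, at a mean of 4045 CPM or more, but Kit, Cebpa and Runx1 were listed at 0 in every library. Reads that fit more than 1 transcript were set aside by the authors (23.8% to 29.8% of uniquely placed reads), and the imprinted genes H19 and Snrpn held 0 and at most 2 counts in any library. Igf2r (NM_010515), Peg3 (NM_008817), Ndn (NM_010882) and Plagl1 (NM_009538) each have 1 transcript in the files. Meg3 has 3, of which NR_027652 took 342 of its counts, NR_003633 took 200 and NR_027651 took 0.

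**Figure D1:**
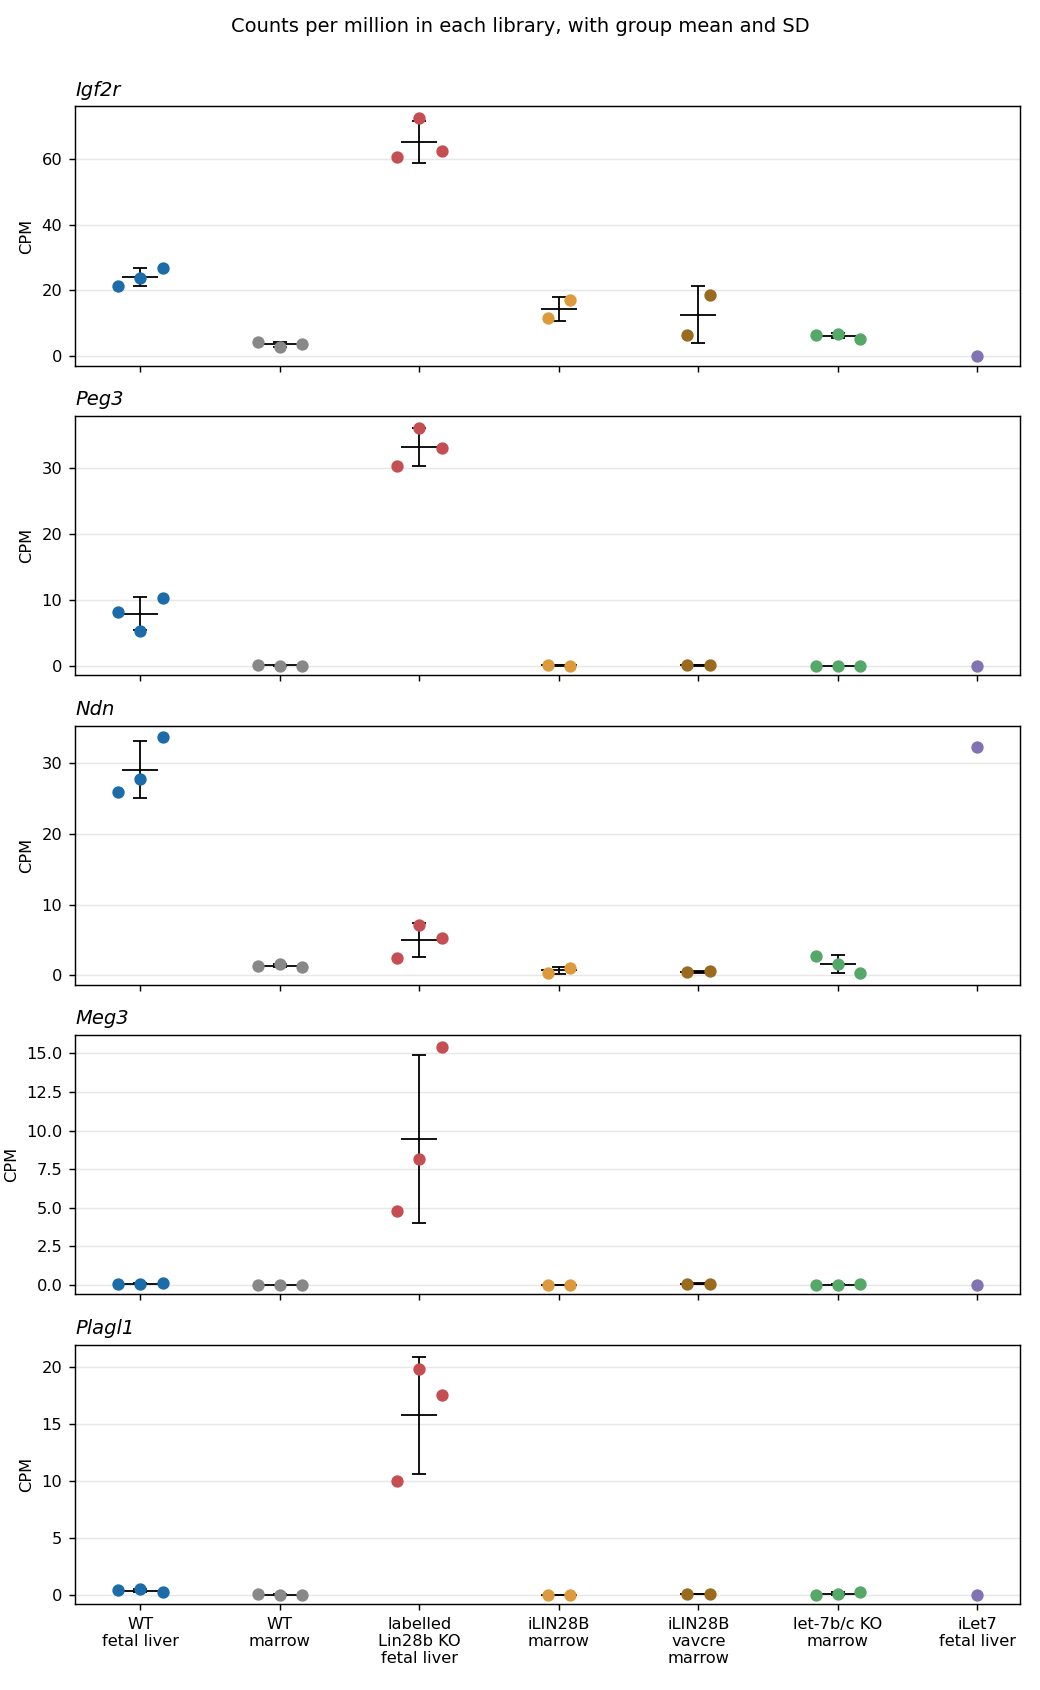
CPM of Igf2r, Peg3, Ndn, Meg3 and Plagl1 (vertical axes, each on its own scale) in each of 17 libraries, grouped by genotype and organ; points are libraries and bars are the group mean with SD, absent for the single inducible let-7 library. Peg3, Meg3 and Plagl1 lie near 0 in all marrow libraries, and Ndn is high in the wild-type and inducible let-7 fetal livers.

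In wild-type progenitors, 4 of the 5 genes were higher in fetal liver than in adult marrow, and Meg3 was at or near 0 in both. Igf2r was 6.66-fold higher, Ndn 21.1-fold higher, and Peg3 and Plagl1 went from measurable counts to 2 counts and 1 count in the marrow group. Over all genes tested, 27.1% were called in this comparison and 13.9% were called higher in fetal liver; in 22.7% every fetal library lay above every marrow library, as in all 5 members. Cell type markers moved in the same comparison. Of 12 granulocyte markers tested 11 were lower in fetal liver (sum 5207 to 6787 against 11000 to 13030 CPM). Most of that sum was Mpo, which also marks progenitors (mean 5440 against 10210 CPM). Of megakaryocyte markers 4 of 7 were lower (108 to 131 against 325 to 458 CPM), and 4 of 8 lymphoid markers were higher (90.9 to 128 against 16.0 to 28.3 CPM). The part of these markers in the members' differences was not tested.

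Igf2r encodes a receptor that carries IGF2 to the lysosome for destruction and delivers hydrolases tagged with mannose 6-phosphate. In the RefSeq and GENCODE models of GRCm38 it spans chr17:12682406-12769664 on the minus strand, with 48 exons. It measured 21.4, 23.9 and 26.9 CPM in the wild-type fetal livers (24.1 ± 2.76, SD, n = 3). In wild-type marrow it measured 4.22, 2.75 and 3.83 CPM (3.60 ± 0.761, SD, n = 3), from 85, 47 and 70 counts. The groups did not overlap, the lowest fetal library lying well above the highest marrow library. The log2 difference was 2.73 (SE 0.314, edgeR adjusted p = 1.455e-05).

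Peg3, a paternally expressed zinc finger protein of 9 exons at chr7:6703892-6730421 (minus strand), measured 8.08, 5.28 and 10.3 CPM in wild-type fetal liver (7.87 ± 2.497, SD, n = 3). The wild-type marrow libraries held 2, 0 and 0 counts, against 455 counts in the fetal group. Peg3 was thus nearly confined to the fetal libraries among the wild types. The ratio of counts was 217 (95% interval 59.8 to 1801), and edgeR gave an adjusted p of 2.259e-06.

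Ndn encodes necdin, a paternally expressed protein of the MAGE family that restrains cell division and is known from the quiescence of blood stem cells. It is a gene of a single exon at chr7:62346569-62350262 on the plus strand in the GENCODE model. It measured 25.9, 27.7 and 33.6 CPM in wild-type fetal liver (29.1 ± 4.06, SD, n = 3) and 1.34, 1.64 and 1.15 CPM in wild-type marrow (1.38 ± 0.247, SD, n = 3). The groups were far apart relative to the spread within either. The log2 difference was 4.40 (SE 0.585, edgeR adjusted p = 5.525e-05).

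Plagl1, also called Zac1, encodes a zinc finger transcription factor that regulates other imprinted genes and can halt the cell cycle. It lies at chr10:13090788-13131694 (plus strand). It held 9, 9 and 4 counts in wild-type fetal liver (0.408, 0.485 and 0.229 CPM) and 1, 0 and 0 counts in wild-type marrow. Its fetal level was low, though every fetal library held more than every marrow library. The ratio of counts was 21.0 (95% interval 3.398 to 867.7), with an edgeR adjusted p of 0.00873.

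Meg3, a maternally expressed long noncoding RNA of the Dlk1-Dio3 cluster at chr12:109541005-109571721 (plus strand), held 1, 1 and 2 counts in wild-type fetal liver and none in wild-type marrow. These levels were at the limit of detection at this depth, where 3 counts in a library equal 0.116 to 0.182 CPM. The difference did not pass the test (edgeR adjusted p = 0.0778).

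In the fetal livers labelled Lin28b knockout, 4 of the 5 genes were higher than in wild-type fetal liver and Ndn was lower. Meg3 and Plagl1, barely detected in the wild type, reached several CPM or more in every library so labelled. Peg3 was 4.201-fold higher, Igf2r 2.70-fold higher and Ndn 5.84-fold lower. This comparison changed much of the transcriptome: 43.8% of all genes tested were called, 20.8% higher and 23% lower. The libraries did not overlap for any of the 5 members, as for 28.9% of all genes on the higher side and 30.9% on the lower side. Meg3 held at most 2 counts and Plagl1 at most 9 in any library outside this group, so both entered the test through the libraries in which they are high, and their calls add nothing to the count of members. When libraries were scaled to all uniquely placed reads, the median of all genes moved to -0.305 on the log2 scale, and 29.8% of called genes were higher against 47.5% with the main scaling; the 5 members kept their calls and directions.

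These libraries stand apart in several ways that move with the imprinted genes. Lin28b itself was not lower in them (104 ± 12.9 CPM, SD, n = 3) than in wild-type fetal liver (104 ± 17.6 CPM, SD, n = 3); counts over the whole transcript do not check a deletion of part of it. Of 17 hepatocyte markers 15 had counts, with Serpina1a and Ahsg at 0, and their sum was 516 to 1666 CPM against 123 to 132 in wild-type fetal liver. Of 14 markers of stroma and endothelium 9 had counts, with Pdgfra, Pdgfrb, Sparc, Pecam1 and Tek at 0, and their sum was 33.3 to 133 CPM against 4.87 to 7.35. Hnf4a, a hepatocyte transcription factor of that list, was called lower, and the hepatocyte sum was 353 to 402 CPM in wild-type marrow. The 14 erythroid markers all had counts and summed to 29900 to 34850 CPM against 587 to 817. The 15 stem and multipotent progenitor markers, with Ly6a at 0, summed to 105 to 120 CPM against 608 to 634. Megakaryocyte markers were higher in 7 of 7 tested (592 to 1058 against 108 to 131 CPM). Gp6 of that list held no count in the LIN28B lines, the let-7b/c knockouts and the inducible let-7 library. Granulocyte markers were higher in 10 of 12 (5753 to 11100 against 5207 to 6787 CPM). Mpo, a large part of that sum, was not called (mean 4045 against 5440 CPM). Lymphoid markers were lower in 4 of 8 tested (28.1 to 31.4 against 90.9 to 128 CPM). These counts stand beside 20.8% of all genes called higher and 23% called lower. The part of these other transcripts in the members' differences was not tested, and in bulk samples fewer cells of a type and less RNA per cell cannot be told apart.

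Igf2r measured 60.5, 72.3 and 62.4 CPM in the 3 libraries labelled Lin28b knockout (65.1 ± 6.32, SD, n = 3), above every wild-type fetal liver. The log2 difference from wild-type fetal liver was 1.43 (SE 0.288, edgeR adjusted p = 0.000778). Peg3 measured 30.3, 36.0 and 32.9 CPM (33.1 ± 2.86, SD, n = 3), again without overlap. Its log2 difference was 2.07 (SE 0.376, edgeR adjusted p = 0.000531). Both genes were tight across the 3 libraries, within a spread much smaller than their distance from wild type.

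Ndn went the other way. It measured 2.47, 7.15 and 5.33 CPM (4.98 ± 2.36, SD, n = 3), all below the lowest wild-type fetal liver and all above the highest wild-type marrow. The log2 difference from wild-type fetal liver was -2.54 (SE 0.526, edgeR adjusted p = 0.00101).

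Meg3 measured 4.79, 8.15 and 15.4 CPM, from 91, 139 and 304 counts, against 4 counts in the whole wild-type fetal group. It was the most uneven of the members that were higher, the top library being well over the lowest. The log2 difference was 6.96 (SE 0.756, edgeR adjusted p = 9.651e-06). Plagl1 measured 9.99, 19.8 and 17.5 CPM (15.8 ± 5.14, SD, n = 3), and its log2 difference was 5.37 (SE 0.654, edgeR adjusted p = 1.098e-05). Neither gene overlapped its wild-type values. Both entered the test through these libraries, in which they are high, so their p-values are descriptions and add no support.

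Within these 3 libraries the members followed different orders, as the plot of the libraries labelled Lin28b knockout shows. Meg3 was lowest in replicate 3 and highest in replicate 8, the order of the hepatocyte sum (516, 962 and 1666 CPM in replicates 3, 6 and 8) and of Alb, the main liver plasma protein, which ranged from 110 to 435 CPM. Igf2r, Peg3, Ndn and Plagl1 were lowest in replicate 3 and highest in replicate 6, the order of the stroma and endothelium sum (33.3, 133 and 89.1 CPM). The erythroid sum had the reverse of that order (34850, 29900 and 32870 CPM). With 3 libraries these orders are descriptions, and their part in the results was not tested.

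**Figure D2:**
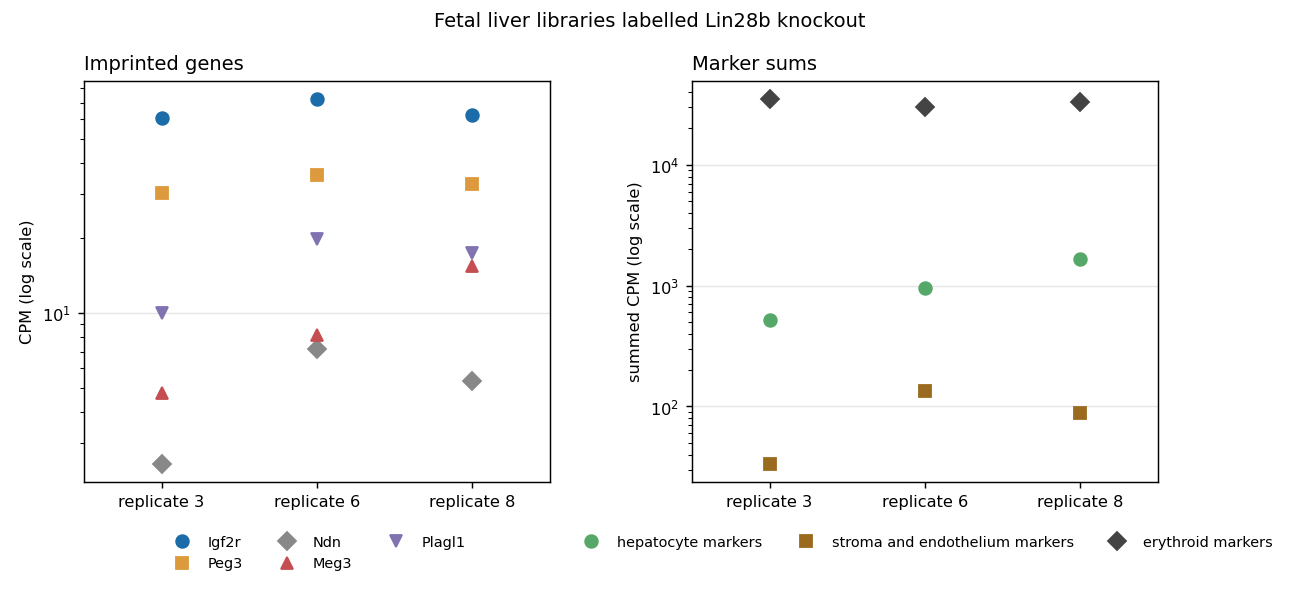
The 5 imprinted genes in CPM (left, log scale) and 3 marker sums in summed CPM (right, log scale) in each fetal liver library labelled Lin28b knockout; each point is 1 library. Meg3 and the hepatocyte sum are highest in replicate 8, whereas the other 4 genes and the stroma and endothelium sum are highest in replicate 6.

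Set against wild-type adult marrow, which serves as the control in another comparison above, the libraries labelled Lin28b knockout were higher in all 5 genes, Meg3 and Plagl1 again tested through these libraries alone, beside 23.6% of all genes tested called higher and 47.8% called in all. Igf2r was 18.0-fold higher (edgeR adjusted p = 4.719e-08). Ndn was 3.61-fold higher (log2 1.85, SE 0.553, edgeR adjusted p = 0.0117), a call that was lost without replicate 6 of the fetal group (log2 1.504, adjusted p = 0.0550). The ratio of counts was 915 for Peg3 (95% interval 253 to 7559) and 868.5 for Plagl1 (95% interval 155 to 34340). Meg3, with no count in wild-type marrow, was at least 177-fold higher.

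In the adult marrows labelled inducible LIN28B, Igf2r was higher than in wild-type marrow and the other 4 genes did not pass the test. Lin28b itself had means of 2.67 CPM without vavcre and 2.83 CPM under vavcre. It had means of 0.359 CPM in wild-type marrow and 104 CPM in wild-type fetal liver. Whether LIN28B was induced was not tested. Peg3, Meg3 and Plagl1 stayed at or near 0. Thus 1 of 5 members was called higher, beside 6.59% of all genes tested called higher and 14.4% called in either direction. Where libraries were scaled to all uniquely placed reads, 56.5% of called genes were higher against 45.6% with the main scaling. Of 13 erythroid markers tested 4 were higher in the LIN28B lines (Urod, Gata1, Klf1 and Fech). The erythroid sums were 905 to 1108 CPM against 548 to 773. Ctsg and Elane were lower of 12 granulocyte markers tested, with a list median of 0.277 on the log2 scale. Cd48, Csf1r and Fcgr2b were lower of 9 common myeloid progenitor markers, and Procr and Mecom of 13 stem and multipotent progenitor markers. Pf4 was lower of 7 megakaryocyte markers, and Col1a2 and Bgn of 8 stroma and endothelium markers. The part of these markers in the Igf2r difference was not tested.

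Igf2r measured 11.7 and 16.98 CPM with inducible LIN28B (14.3 ± 3.76, SD, n = 2) and 6.50 and 18.7 CPM with inducible LIN28B under vavcre (12.6 ± 8.62, SD, n = 2). All 4 libraries lay above the wild-type marrows and all lay below the wild-type fetal livers; 6.11% of all genes lay above wild-type marrow without overlap. The mean of the lines was 3.71-fold above wild-type marrow (log2 1.89, SE 0.297, edgeR adjusted p = 0.00115). The call held with each library left out in turn, with log2 differences from 1.42 to 2.18.

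Ndn measured 0.364 and 1.02 CPM with inducible LIN28B and 0.422 and 0.591 CPM under vavcre, each below the lowest wild-type marrow, as for 7.15% of all genes. The log2 difference of -1.20 (SE 0.570) did not pass the test (edgeR adjusted p = 0.180), and these values rest on 6 to 19 counts a library. Peg3 held 1 and 0 counts with inducible LIN28B and 3 and 1 under vavcre. Plagl1 held 0 and 0 counts, and 1 and 2 under vavcre; Meg3 held 0 and 0, and 2 and 1 under vavcre. At this depth no difference from the 2, 1 and 0 counts of Peg3, Plagl1 and Meg3 in wild-type marrow was detectable.

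Between the inducible LIN28B lines with and without vavcre no member passed the test, beside 20.6% of all genes tested; 0 of the 5 had an unadjusted p under 0.05 in edgeR, and DESeq2 also called 0. Igf2r differed by -0.19 on the log2 scale (SE 0.354, edgeR adjusted p = 0.770), and its vavcre libraries were far apart. Without replicate 6 of the vavcre line the difference was -1.15 with an adjusted p of 0.00995, and that lone remaining library is assumed to vary like the other groups. Ndn differed by -0.47 (SE 0.808, edgeR adjusted p = 0.743).

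Between the let-7b/c knockouts and wild-type marrow none of the 5 genes passed the test, beside 2.25% of all genes called by edgeR. Igf2r measured 6.49, 6.68 and 5.30 CPM (6.16 ± 0.744, SD, n = 3), each above every wild-type marrow. Its log2 difference was 0.77 (SE 0.312, 1.70-fold), with an unadjusted p of 0.0265 and an edgeR adjusted p of 0.257. It was the member that lay above wild type without overlap, as 10.3% of all genes did. DESeq2 also called none, and Igf2r was the only member with an unadjusted p under 0.05 in edgeR.

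Ndn measured 2.76, 1.64 and 0.260 CPM in the let-7b/c knockouts, from 51, 29 and 5 counts, and this range took in the wild-type marrows on both sides. Its log2 difference was 0.17 (SE 0.573, edgeR adjusted p = 0.941). Peg3 held no count in these libraries, which allows up to 0.0542 CPM over the group, Plagl1 held 0, 1 and 5 counts and Meg3 held 0, 0 and 1. Because wild-type marrow is the control for this comparison, for the LIN28B comparison and for the fetal one, the 3 Igf2r differences share their baseline.

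**Figure D3:**
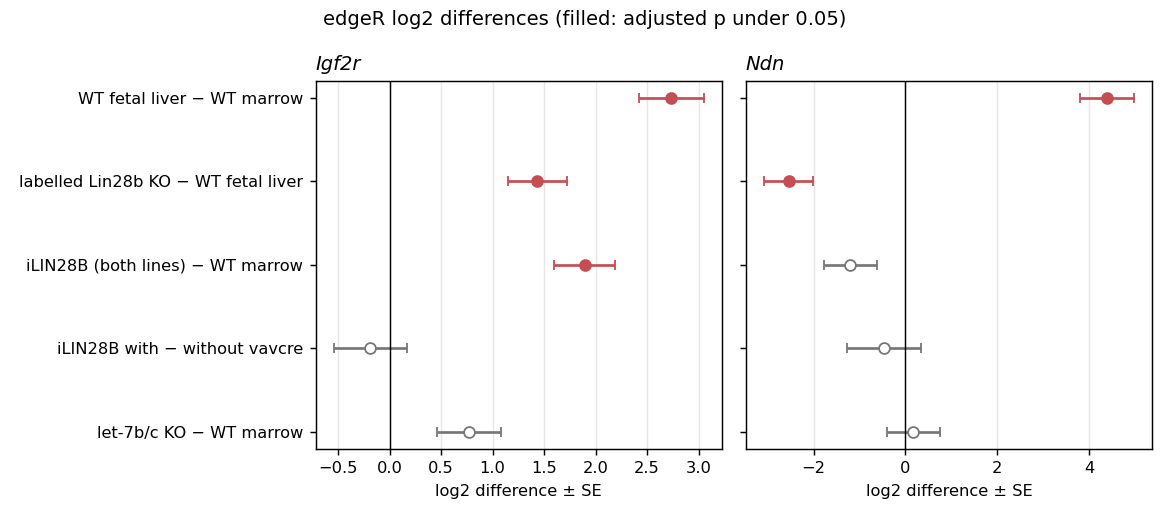
Log2 differences with SE (horizontal axis) of Igf2r and Ndn in 5 comparisons (rows) from edgeR's quasi-likelihood test; filled red points passed an adjusted p of 0.05 and open grey points did not. Igf2r is positive in 4 comparisons, 3 of them called, whereas Ndn is called higher in wild-type fetal liver over marrow and lower in the libraries labelled Lin28b knockout.

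In the single fetal liver library with inducible let-7, Igf2r and Peg3 were absent or nearly so, while Ndn stood at its wild-type fetal level. There is no replicate of this library and no test was made. Marker sums of this library also lay outside the wild-type fetal range: granulocyte 18900 CPM against 5207 to 6787, stem and multipotent progenitor 260.0 against 608 to 634, megakaryocyte 32.3 against 108 to 131 and lymphoid 5.89 against 90.9 to 128. Mpo alone made up 16860 CPM of that granulocyte sum. The part of these markers in the members' levels was not tested. Of all genes tested, 46.6% lay below and 32.6% lay above the range of the 3 wild-type fetal livers.

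Igf2r held 1 count in this library, 0.0388 CPM, against 21.4 to 26.9 CPM in wild-type fetal liver. The ratio of wild type to this library was 616 (95% interval 110 to 24350, counting error only). Peg3 held no count and was at least 67.4-fold lower, taking 3 counts in this library as the floor. Plagl1, also without a count, was at least 3.26-fold lower, and Meg3 was at or under the floor in both. Ndn measured 32.2 CPM from 832 counts (95% Poisson interval 30.1 to 34.5), within the wild-type fetal range of 25.9 to 33.6 CPM. With scaling to all uniquely placed reads Ndn measured 18.8 CPM in this library. The wild-type fetal range above is on the main scale, so this value cannot be set against it.

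Long transcripts were low in this library as a class. Among genes with a wild-type fetal mean of at least 10 CPM, the median log2 difference from wild-type fetal liver was -0.71 over 327 genes longer than 8000 bases and 0.34 over 1896 genes of at most 2000 bases. The same long genes had medians between -0.01 and 0.01 in the libraries labelled Lin28b knockout. Igf2r, of 8887 bases, had a log2 difference of -7.42 with a prior count of 2, as low as 2 of the 327 long genes, itself included, and 55 of them were below -3. Peg3 has 8694 bases. In the vavcre libraries the long genes' medians were -0.33 and -0.26 relative to wild-type marrow, and in the let-7b/c knockouts they were -0.20 to -0.15. The part of transcript length in the levels of Igf2r and Peg3 was not tested.

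**Figure D4:**
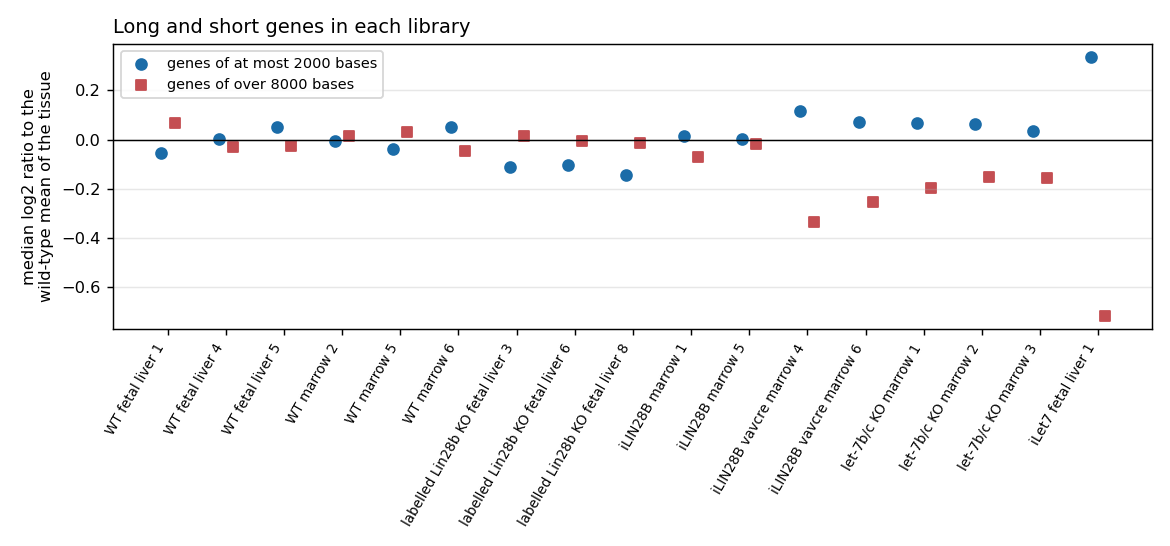
Median log2 ratio to the mean of the wild-type libraries of the same organ (vertical axis) for genes of at most 2000 bases (circles) and over 8000 bases (squares) in each of the 17 libraries. The inducible let-7 library lies farthest from 0 for both classes, and the vavcre and let-7b/c knockout libraries have long genes below 0.

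Taking the groups in order of mean level, Igf2r ran from the libraries labelled Lin28b knockout (65.1 CPM) through wild-type fetal liver, inducible LIN28B, inducible LIN28B under vavcre, let-7b/c knockout and wild-type marrow to the inducible let-7 library (0.0388 CPM). Neighbours in that order overlapped only among inducible LIN28B, its vavcre line and the let-7b/c knockouts. Ndn had another order, with the inducible let-7 library and wild-type fetal liver on top and overlapping, then the libraries labelled Lin28b knockout (4.98 CPM), which overlapped the let-7b/c knockouts (1.55 CPM), then wild-type marrow and both LIN28B lines. For Peg3 the top places were the libraries labelled Lin28b knockout and wild-type fetal liver, and the remaining groups overlapped at or near 0. For Meg3 and Plagl1 only the libraries labelled Lin28b knockout stood clear of the next group.

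Across the 17 libraries, Pearson's r of log2 CPM between members was 0.97 for Meg3 and Plagl1, 0.88 for Peg3 and Plagl1, 0.73 for Igf2r and Peg3 and 0.03 for Igf2r and Ndn. These values describe libraries that share genotype, organ and depth, and the first of them rest largely on the libraries labelled Lin28b knockout. The genes most like Igf2r were Pip4k2a, a lipid kinase (r = 0.950), Cracd (0.944), Abcb9, a lysosomal peptide transporter (0.941), and Kpna1, a nuclear import receptor (0.939). Pip4k2a measured 290 CPM in the libraries labelled Lin28b knockout, 228 in wild-type fetal liver, 156 in wild-type marrow and 88.2 in the inducible let-7 library. The genes most like Peg3 were Lrrc32, which presents latent TGF-beta (0.982), the noncoding Snhg18 (0.979), Gga2, an adaptor that sorts mannose 6-phosphate receptors (0.951), and Tmem47 (0.950).

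Ndn was most like Fscn1, an actin-bundling protein (0.950), Snu13, a small nucleolar RNA binding protein (0.946), Magoh, of the exon junction complex (0.934), and Npm1, a nucleolar chaperone (0.928). Fscn1 measured 76.6 CPM in wild-type fetal liver, 54.0 in the inducible let-7 library, 9.24 in the libraries labelled Lin28b knockout and 0.413 in wild-type marrow. Meg3 was most like the hepatocyte genes Fgg (0.992), Serpina1b (0.99) and Serpina1c (0.989) and the imprinted Igf2 (0.991). Outside the libraries labelled Lin28b knockout, Meg3, Fgg, Igf2 and Serpina1c held at most 2 counts in any library and Serpina1b at most 6. These r values, and largely those of Plagl1, rest on that 1 group being high and say nothing more of a link between the genes. Plagl1 was most like Abcg2, an efflux transporter (0.979), Clec4f (0.975), Apoa1, a liver apolipoprotein (0.973), and E2f4 (0.970).

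Among 15 genes for IGF ligands, receptors, substrates and binding proteins 12 were tested, and between wild-type fetal liver and marrow 1 was higher and 1 lower, against 27.1% of all genes called. Grb10, an imprinted adaptor that restrains insulin and IGF signalling, was higher (1.99 against 0.540 CPM, edgeR adjusted p = 0.0122). Igf1r, the signalling receptor for the ligands that Igf2r clears, was lower in fetal liver (82.3 ± 2.49 against 115 ± 17.4 CPM, SD, n = 3 each, adjusted p = 0.00286). In the libraries labelled Lin28b knockout 5 were higher and 2 lower than in wild-type fetal liver, against 43.8% of all genes called. Igf2, Igfbp1, Igfbp2 and Igfbp3 held at most 8 counts in any other group and entered the test through these libraries, so the count and a median over the list say nothing about it here. There Igfbp4 fell 3.68-fold (adjusted p = 2.027e-07), Irs2, a receptor substrate, rose from 1.97 to 92.4 CPM (adjusted p = 6.71e-05), Igfbp3 rose from 0.0729 to 6.06 CPM (adjusted p = 0.000778) and Igf2 rose from 1 count to 121 counts (adjusted p = 0.00169). In the mean of the inducible LIN28B lines Igf1r was 1.28-fold higher (adjusted p = 0.0247) and Igfbp4 was 1.61-fold lower (adjusted p = 0.00663) than in wild-type marrow. Without vavcre Igfbp4 measured 448.8 to 564.5 CPM, overlapping wild-type marrow (528.9 to 626 CPM). Under vavcre its mean was 252 CPM, 2.01-fold lower than without vavcre (edgeR adjusted p = 0.0022). In the let-7b/c knockouts 0 of the 12 were called. The shares of all genes called were 14.4% and 2.25%. The ligand Igf2 was thus detected in the libraries labelled Lin28b knockout and was listed at 0 in every marrow library.

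M6pr, the other mannose 6-phosphate receptor, had group means from 421 CPM in wild-type fetal liver to 641 CPM in the inducible let-7 library, and of the 6 comparisons it was called in the vavcre one (570 against 448 CPM, edgeR adjusted p = 0.0402). Of 12 genes that tag or sort lysosomal enzymes 9 were tested, and 2 were higher and 2 lower in wild-type fetal liver than in marrow, against 27.1% of all genes called. Gnptab, which makes the mannose 6-phosphate tag, was 1.85-fold lower (adjusted p = 1.009e-05) and Gga2 was 1.65-fold higher (adjusted p = 3.925e-05). In the libraries labelled Lin28b knockout 2 were higher and 3 lower than in wild-type fetal liver, against 43.8% of all genes called, Gnptab 1.69-fold lower and Gga2 1.40-fold higher. In the mean of the inducible LIN28B lines 2 were higher than in wild-type marrow, Ap1m1 and Vps29, and in the let-7b/c knockouts none was called. The shares of all genes called were 14.4% and 2.25%. Vps29 had means of 107.5 CPM without vavcre, where it overlapped wild-type marrow (102 CPM), and 174 CPM under vavcre.

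Of 20 lysosomal hydrolases and their cofactors, the cargo of these receptors, 18 were tested. In wild-type fetal liver 2 were higher than in marrow, led by Ctsl (2.20-fold), and 7 were lower, Ctsb (1.499-fold) among them, against 27.1% of all genes called; the granulocyte markers given above were lower in the same libraries. Of these 18, 4 were higher in the libraries labelled Lin28b knockout, Ctsb 12.1-fold and Ctsd 2.31-fold, and 5 were lower, against 43.8% of all genes called. In the let-7b/c knockouts 5 were higher than in wild-type marrow and none lower, against 2.25% of all genes called. They were led by Ctsz (1.65-fold, adjusted p = 0.000838), Npc2 (1.46-fold), Ctsb (1.35-fold) and Hexa (1.41-fold). The median was 0.20 over the 18 against 0.00 over all genes. The count was 3 with the groups compared alone, 1 without wild-type marrow replicate 2 or knockout replicate 2, and 2 without wild-type marrow replicate 5 or 6. In the same knockouts the granulocyte sum was 15710 to 20270 CPM against 11000 to 13030, most of it Mpo (mean 14770 against 10210 CPM). Of 12 granulocyte markers tested 1 was called, Prtn3, higher, and the list median was -0.222 on the log2 scale. Of 9 common myeloid progenitor markers tested 2 were higher, Csf2rb and Csf1r, the receptor of macrophage growth factor (260.2 against 101 CPM). Gata2 of that list was lower. The part of these markers was not tested. In the inducible LIN28B lines 1 was higher and 2 were lower than in wild-type marrow, against 14.4% of all genes called.

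Genes next to the members were called in both directions. Around Igf2r 9 of 12 neighbours were tested: Acat2, Mas1, Mrpl18, Plg, Pnldc1, Slc22a3, Sod2, Tcp1 and Wtap. Slc22a3, a cation transporter imprinted in placenta, measured 131 CPM in wild-type fetal liver and 27.8 CPM in the libraries labelled Lin28b knockout (log2 -2.24, edgeR adjusted p = 1.897e-06), opposite to Igf2r. It was also lower in the let-7b/c knockouts than in wild-type marrow (89.1 against 203 CPM, adjusted p = 0.0141). That call was lost without wild-type marrow replicate 2 and with the groups compared alone. Plg, plasminogen of the liver, rose from 2 counts to 542 counts in the libraries labelled Lin28b knockout (adjusted p = 7.668e-06). Plg held at most 4 counts in any other library and was tested through those libraries alone. In wild-type fetal liver over marrow 3 of the 9 neighbours were called higher, beside 13.9% of all genes: Acat2 (1.60-fold), Mrpl18 (1.46-fold) and Sod2 (1.23-fold). Airn, the noncoding RNA that silences paternal Igf2r and overlaps it on the other strand, reached at most 0.411 CPM in any library; the library kit does not mark strand, so reads of an overlap cannot be told apart.

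The Peg3 neighbour Zim1 was the 1 tested of 6, and it held 44 counts in the libraries labelled Lin28b knockout against 0 in wild-type fetal liver (edgeR adjusted p = 0.00818); with at most 1 count in any other group it was tested through those libraries alone. Around Ndn, in the Prader-Willi region, 4 of 7 were tested: Atp10a, Mkrn3, Peg12 and Ube3a. None was called between wild-type fetal liver and marrow, where Ndn differed 21.1-fold and 27.1% of all genes were called. Up to 2 were called in 4 of 12 alternatives. Atp10a fell just short (1.37-fold lower in fetal liver, edgeR adjusted p = 0.053). In the libraries labelled Lin28b knockout Atp10a fell by 2.94 on the log2 scale (12.5 against 96.7 CPM, adjusted p = 4.02e-09). Peg12 fell by 0.64 (adjusted p = 0.0372). Both went in the same direction as Ndn, beside 43.8% of all genes called. The count of 2 called neighbours fell to 1 in 7 of 12 alternatives. Around Meg3, Begain, Mirg, Rian and Wdr25 were tested of 8. The noncoding Rian rose from 0.366 to 5.84 CPM (adjusted p = 0.00604) in the libraries labelled Lin28b knockout. Mirg rose there from 1 count to 75 counts (adjusted p = 0.00518), beside 43.8% of all genes called. Mirg held at most 2 counts in any other group and was tested through those libraries alone. Dlk1, the paternally expressed gene of that cluster, held at most 5 counts in a group. Of the Plagl1 neighbours Ltv1, Phactr2, Sf3b5 and Utrn were tested of 6. Ltv1 and Sf3b5 were higher in wild-type fetal liver than in marrow (log2 0.47 and 0.37), beside 13.9% of all genes called higher. Between the libraries labelled Lin28b knockout and wild-type marrow 3 of the 4 were called, beside 47.8% of all genes. None was called between the libraries labelled Lin28b knockout and wild-type fetal liver, beside 43.8% of all genes.

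Other imprinted genes were called in both directions. Of 49 27 were tested, and 3 were higher and 4 lower in wild-type fetal liver than in marrow, with a median log2 difference of -0.14 against -0.08 for all genes. The 7 called of 27 stand beside 27.1% of all genes called, and became 4 without wild-type fetal liver replicate 5 and 11 with the groups compared alone. Mcts2, a translation factor retrogene, was 5.13-fold higher (adjusted p = 3.705e-05), and Kcnq1ot1, the noncoding RNA of the Kcnq1 cluster, was 1.43-fold lower. In the libraries labelled Lin28b knockout 5 were higher and 9 lower than in wild-type fetal liver, beside 43.8% of all genes called; Zim1 and Mirg are among the 5. The noncoding Peg13 fell 5.44-fold, Casd1 fell 2.35-fold and Zrsr1 rose 7.16-fold. In the inducible LIN28B lines 1 was higher than in wild-type marrow, Cd81 (1.86-fold), and 3 were lower, beside 14.4% of all genes called. In the let-7b/c knockouts 1 was lower, Slc22a3, beside 2.25% of all genes called. Of 10 genes of the imprinted network linked to Plagl1, 5 were tested, and in wild-type fetal liver Slc38a4, an amino acid transporter, was 27.1-fold higher and Gatm 3.09-fold lower than in marrow.

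Of 13 genes that keep or erase imprints 7 were tested. Between wild-type fetal liver and marrow 1 was higher and 2 were lower, beside 27.1% of all genes called. Trim28, the corepressor that ZFP57 recruits, was 1.39-fold higher in wild-type fetal liver than in marrow (715 ± 37.5 against 514 ± 41.5 CPM, SD, n = 3 each, edgeR adjusted p = 0.000394). Tet2 and Tet3, which oxidise methylated cytosine, were 1.77-fold and 1.52-fold lower. Trim28 was the 1 called in the libraries labelled Lin28b knockout, 1.81-fold lower than in wild-type fetal liver (adjusted p = 4.064e-07), beside 43.8% of all genes called. In the let-7b/c knockouts 0 of the 7 were called, beside 2.25% of all genes. Plagl2, the closest relative of Plagl1, was 1.93-fold higher in wild-type fetal liver than in marrow (114 ± 4.30 against 58.9 ± 4.16 CPM, SD, n = 3 each, adjusted p = 2.876e-05) and was plentiful in marrow, where Plagl1 was not.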

How the data were processed

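RNA of 17 libraries was measured. Per the submitters' processing notes, reads were processed with cutadapt, TopHat2 and HTSeq on mm10; no version or strand setting is stated there. The authors deposited raw counts per RefSeq transcript. Reads assigned to no feature (8.87% to 19.3% of uniquely placed reads) or to several were left out of library sizes. Of 33818 transcripts, 33435 were named from a RefSeq table (GRCm38.p6), 191 from GENCODE, and 192 were left unnamed; counts were summed to genes. The labels named no sorting markers. Groups came from the labels.

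edgeR 4.0.16 (filterByExpr on group, TMM, 7 group means, 10 residual degrees of freedom, two-sided) tested 6 contrasts and was tested on simulated data first. CPM uses TMM-scaled totals. DESeq2 1.42.0, RLE factors, no filter, scaling to all uniquely placed reads, the groups compared alone, the transcript with most counts, and each library left out were the alternatives. SE is the log2 difference over the root of F. No libraries held identical values.

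Members, lists and tests were chosen with earlier results of these data known. For each list, counts called and up to 4 members by smallest p are named; neighbours are named where tested; for each member the 4 tested genes of highest Pearson r of log2 CPM (prior count 2), for Meg3 and Plagl1 only because at least 3 libraries held at least 10 counts; gene models without a settled name, small RNA genes and sex-linked marker genes were passed over. A log2 difference of a member is reported where the larger group held at least 10 counts.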

Additional observations from a re-analysis of the deposited data

How the results depend on the processing

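The count of members called kept within 1.5 times of its main value in 70 alternatives; without replicate 6 of the vavcre line 1 member, Igf2r, was called in the vavcre comparison, where 0 were called otherwise. Leaving out libraries gave 0 to 1 members called there. Of the members' log2 differences under the alternatives, 231 kept direction and side of the threshold, Ndn in the libraries labelled Lin28b knockout over wild-type marrow fell short without replicate 6 (1.504), and Igf2r passed in the vavcre comparison without vavcre replicate 6 (-1.15). Those that reversed had not been called: Igf2r in the vavcre comparison at 0.12 without inducible LIN28B replicate 5 and 0.38 without vavcre replicate 4, Ndn there at 0.47 without inducible LIN28B replicate 5, and Ndn in the let-7b/c comparison at -0.52 without knockout replicate 1. With a library left out, Igf2r in the vavcre comparison ran from -1.15 to 0.38, Ndn there from -1.01 to 0.47, and Ndn in the let-7b/c comparison from -0.52 to 0.71. The Ndn level in the inducible let-7 library moved to 18.84 CPM with totals of all uniquely placed reads. That is a change of scale, and it was not set against wild-type levels on the same scale.

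Counts of all genes called depended on the settings in the adult comparisons. For LIN28B over wild-type marrow, 1958 genes became 1132 with the groups compared alone and 1095 to 2672 with a library left out. For the vavcre comparison, 2799 became 422 with the groups alone and 1376 to 3152 with a library left out. For let-7b/c, 305 became 783 with DESeq2 and 96 to 378 with a library left out. The cause was not tested. Counts for the lists moved in 100 alternatives and kept within that range in 752. No paired analysis was possible because the groups compared share fewer than 2 replicate numbers, or, for the LIN28B lines and wild-type marrow, numbers that fall in different lines. Peg3, Meg3 and Plagl1 rest on 0 to 6 counts in each marrow group, so depth limits any comparison among marrows.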
